A study of Mus musculus with 9 samples.

Results

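The vascular endothelial growth factor (VEGF) family was examined as 10 genes, selected by symbol from the 24321 genes of the expression table. They are the receptors Flt1 (VEGFR1), Kdr (VEGFR2) and Flt4 (VEGFR3), the neuropilins Nrp1 and Nrp2, and the ligands Vegfa, Vegfb, Vegfc, Figf (which encodes VEGF-D) and Pgf (placental growth factor). All 10 symbols were present in the table, and 9 of them reached an FPKM (fragments scaled for transcript length and library size) of at least 1 in at least 3 libraries and entered the test across genes. Figf did not.

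The libraries were made from meningeal lymphatic endothelial cells (MLECs), the cells that line the lymphatic vessels of the membranes around the brain. The cells were sorted from male C57BL/6 mice, aged 10 weeks according to the labels, by the endothelial surface protein CD31 and the lymphatic surface protein LYVE-1 without the leukocyte protein CD45. Control mice had received PBS, and the other groups had received GL261 cells, a mouse glioma line, or B16 cells, a mouse melanoma line. There were 3 libraries per group, each made from 10 cells of a pool of 6 mice, so that 1 library stands for several animals but for very few cells. The labels place 100000 tumor cells in 5 µL into the cisterna magna at 7 to 8 weeks of age, with collection about 3 weeks later for GL261 and about 2 weeks later for B16. The methods of the study describe injection under the dura for the cells collected here, with fewer tumor cells than the labels and fewer of B16 than of GL261. The results section names PDPN in place of LYVE-1 as a sorting protein and gives 2 weeks after injection for GL261 and B16 alike. By the labels, time after injection and tumor line cannot be told apart in the comparison of GL261 with B16. By the methods, the number of injected cells and tumor line cannot be told apart there.

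VEGF ligands act through receptor tyrosine kinases on endothelial cells. VEGFR2, the product of Kdr, carries most of the growth and permeability signal of VEGF-A in blood vessels, whereas VEGFR1, the product of Flt1, binds VEGF-A, VEGF-B and placental growth factor tightly with weak kinase activity and is often regarded as a decoy. VEGFR3, the product of Flt4, is bound by VEGF-C and VEGF-D and is needed for the growth of lymphatic vessels, where it is kept in the adult while most blood vessels lose it. Neuropilins are co-receptors without a kinase, with Nrp1 known from arteries and Nrp2 from veins and lymphatics.

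Lyve1, Pdpn and Prox1 were above 0 in all 9 libraries, and Ptprc, which encodes CD45, was listed at 0 in all of them. The table holds no read counts, so that the depth behind an FPKM is unknown and no counting error can be attached to it. The number of genes above 0 ranged from 7303 to 8688 in the controls and from 8736 to 10852 with a tumor, so that the detection of genes and the presence of a tumor cannot be told apart. Tbp, a general transcription factor gene, was listed at 0 in 2 control libraries, and a VEGF family gene without a value is therefore described as listed at 0 and not as absent. Values are compared between genes on the FPKM scale, which is per transcript length, and differences between groups are given on the scale of log2(FPKM + 1), a scale that makes changes of weakly expressed genes look smaller than they are.

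The first comparison asked how the VEGF receptors differ between tumor-associated MLECs (GL261 and B16 joined) and control MLECs. Flt4 fell and Flt1 rose in tumor-associated MLECs, while Kdr overlapped between the groups. In control MLECs, Flt4 was the most abundant gene of the family, and Flt1 was below 1 FPKM in every library. In GL261 MLECs, Flt1 exceeded Flt4 in every library.

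Flt4 lies on chromosome 11 of the mouse genome mm9 from 49422765 to 49466241, on the plus strand. Its FPKM was 174, 205 and 220 in control libraries 1 to 3, 40.1, 45.4 and 49.0 in the GL261 libraries, and 106, 56.3 and 59.4 in the B16 libraries. Every tumor-associated library was below every control library, and the highest tumor-associated value was that of B16 replicate 1. Control MLECs averaged 199 ± 23.4 (SD, n = 3) and tumor-associated MLECs 59.4 ± 24.0 (SD, n = 6). The log2 difference was -1.80, with a standard error of 0.37 (limma's adjusted p = 0.0160). Among the genes above 0 in a library, Flt4 ranked above 92.2% to 94.4% of them in control, above 81.7% to 83.5% in GL261 and above 83.3% to 89.6% in B16 MLECs. In bulk libraries such as these, fewer cells of a type and less RNA per cell cannot be told apart.

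Flt1 lies on chromosome 5 from 148373180 to 148537587, on the minus strand. Its FPKM was 0.0997, 0.856 and 0.544 in control libraries, 105, 128 and 99.1 in the GL261 libraries, and 49.0, 156 and 133 in the B16 libraries. The groups did not overlap, and B16 replicate 1 was the lowest tumor-associated library. Control MLECs averaged 0.500 ± 0.380 (SD, n = 3) and tumor-associated MLECs 112 ± 36.9 (SD, n = 6), a difference of 6.18 ± 0.50 (standard error) on the log2 scale (limma's adjusted p = 3.01e-05). Flt1 ranked above 0.931% to 9.51% of the detected genes in control libraries and above 79.7% to 92.7% in tumor-associated libraries. The mm9 annotation lists 5 transcripts of Flt1, of which 3 code for protein, and FPKM per gene cannot separate the membrane receptor from its soluble form.

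Kdr, on chromosome 5 from 76328852 to 76374483 on the minus strand, was the receptor that differed least. Its FPKM was 30.3, 56.7 and 43.3 in control libraries, 26.4, 49.6 and 26.4 in the GL261 libraries, and 17.2, 54.4 and 39.6 in the B16 libraries. The ranges of the groups overlapped, with both the lowest value and the second highest in B16 MLECs. Control MLECs averaged 43.4 ± 13.2 (SD, n = 3) and tumor-associated MLECs 35.6 ± 14.7 (SD, n = 6). The log2 difference of -0.34 had a 95% interval from -1.37 to 0.69 (limma's adjusted p = 0.755), which leaves room for a fall of more than 1 on the log2 scale.

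**Figure D1:**
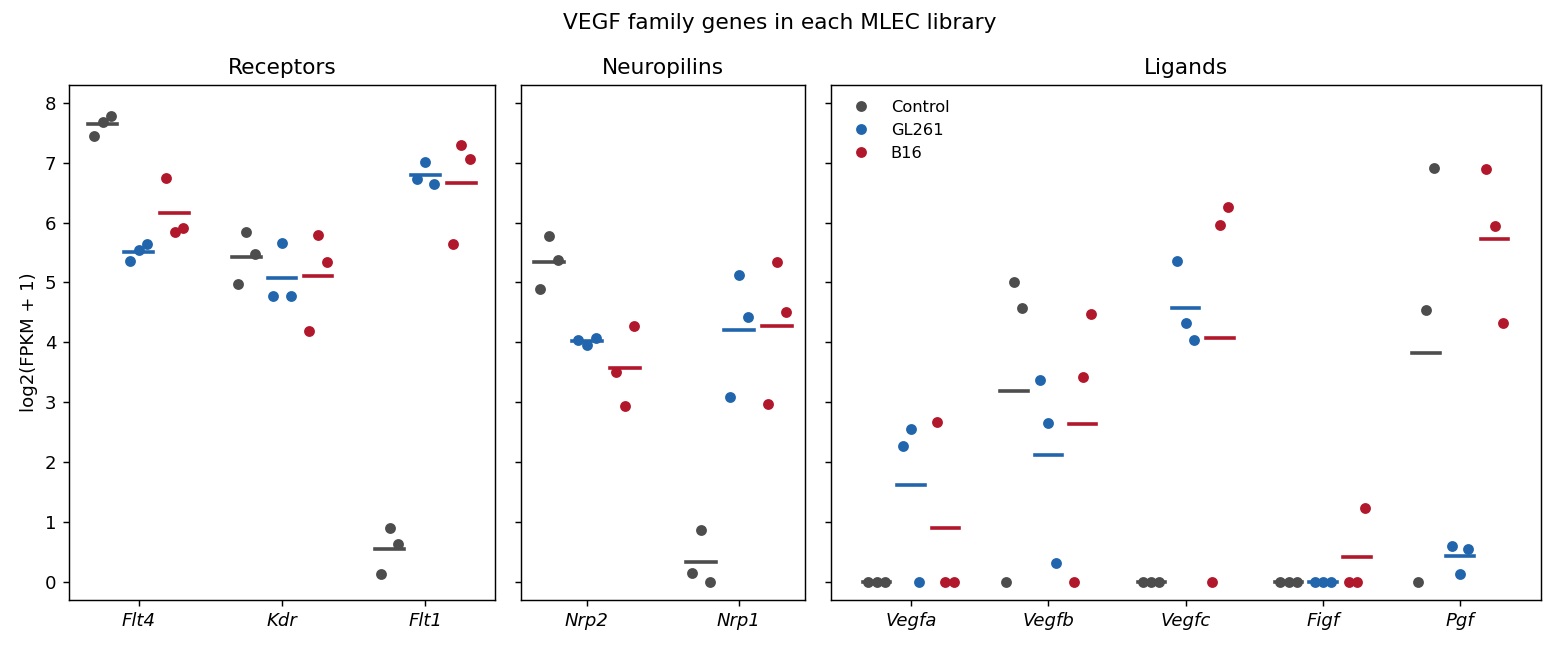
Level of each of the 10 VEGF family genes, as log2(FPKM + 1), in each library; points are libraries, colored by group, and bars are group means of 3 libraries. Flt4 sits highest in the control libraries, Flt1 and Nrp1 sit near 0 in the control libraries and above it in all 6 tumor-associated libraries, and the ligands spread widely within groups.

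The lymphatic receptor was then set against the blood vessel receptors within each library, where a scale factor of the library cancels in the shares. These shares and ratios are descriptions, and no test was attached to them. The summed FPKM of the 3 receptors overlapped between groups, at 204 to 264 in the controls, 172 to 223 with GL261 and 172 to 267 with B16. Flt4 made up 85.1%, 78.0% and 83.4% of this sum in the control libraries. It made up 23.3%, 20.4% and 28.1% in the GL261 libraries and 61.7%, 21.1% and 25.6% in the B16 libraries. The Flt4 share of every tumor-associated library was below that of every control library, with B16 replicate 1 between the others and the controls.

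The share of Flt1 was 0.0488% to 0.326% in control and 56.8% to 61.3% in GL261 libraries, and in B16 libraries it was 28.4%, 58.5% and 57.3%. The share of Kdr was 14.8% to 21.6% in the controls, 15.1% to 22.3% with GL261 and 9.97% to 20.4% with B16, so that its ranges overlapped. Flt4 minus Flt1 on the log2(FPKM + 1) scale was 6.79 to 7.31 in control libraries and -1.47 to -1.002 in GL261 libraries. In B16 libraries it was 1.10, -1.45 and -1.15, so that B16 replicate 1 was the only tumor-associated library with more Flt4 than Flt1. The mean of this quantity in tumor-associated minus that in control MLECs was -7.98 (-8.38 without B16 replicate 1).

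Flt4 minus Kdr lay between 1.83 and 2.48 in control MLECs and between -0.13 and 0.87 in GL261 MLECs, and it was 2.56, 0.05 and 0.57 in the B16 libraries. B16 replicate 1 lay above all control libraries here, and the ranges overlapped through that library. The means of tumor-associated and control MLECs differed by -1.46, and by -1.82 without B16 replicate 1. Flt1 minus Kdr lay between -4.96 and -4.83 in the controls and between 1.35 and 1.96 in all tumor-associated libraries, with B16 replicate 1 inside the range of the others.

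**Figure D2:**
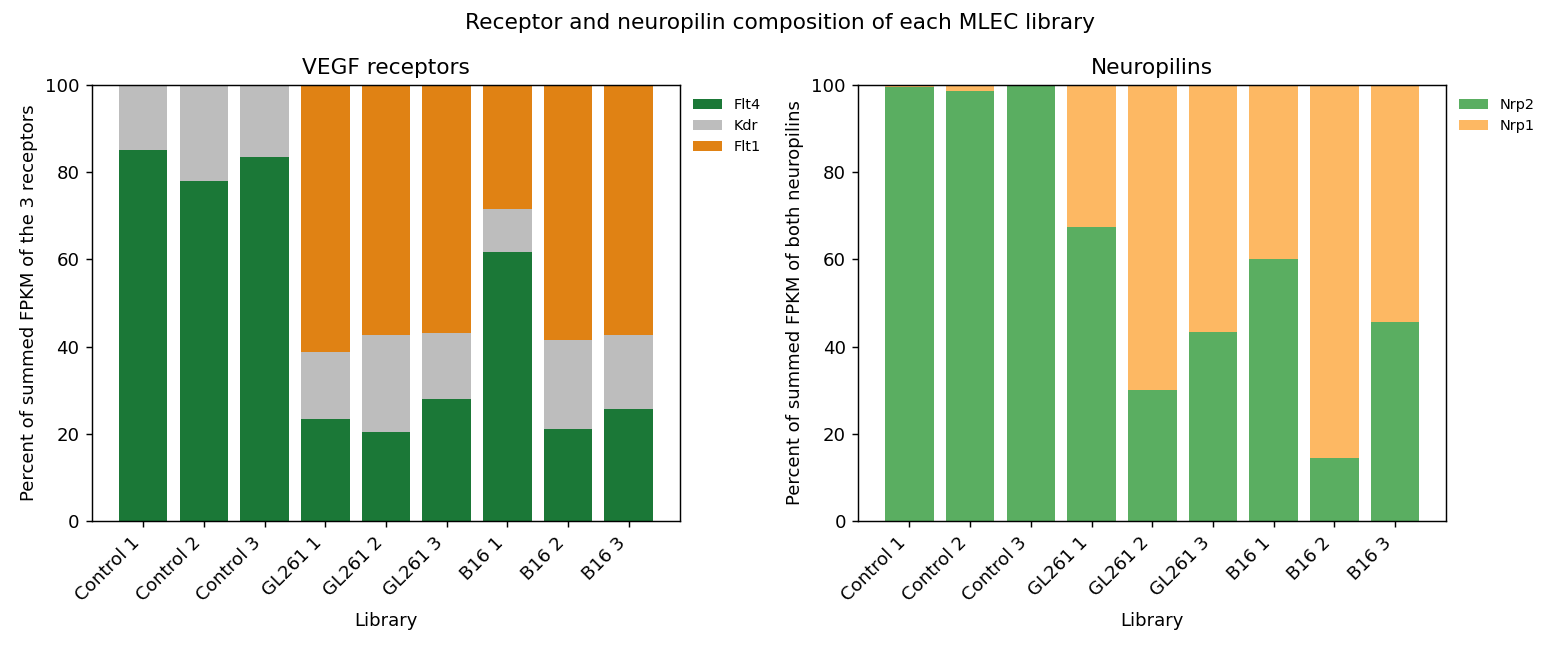
Composition of each library, as the percent of the summed FPKM of Flt4, Kdr and Flt1 (left) and of Nrp2 and Nrp1 (right); each bar is 1 library. Flt4 holds 78.0% to 85.1% of the receptor sum in control libraries and 20.4% to 28.1% in all tumor-associated libraries except B16 replicate 1, at 61.7%, while the Kdr segment stays between 9.97% and 22.3%.

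Of the neuropilins, Nrp1 passed the test and Nrp2 did not. Nrp1, on chromosome 8 from 130882973 to 131029362 on the plus strand, with the miRNA gene Mir1903 inside it, rose in tumor-associated MLECs. Its FPKM was 0.106, 0.819 and 0 in control libraries, 7.45, 34.0 and 20.6 in the GL261 libraries, and 6.85, 39.5 and 21.8 in the B16 libraries. Every tumor-associated library was above every control library, and replicate 1 was the lowest library of both tumor groups. The log2 difference was 3.91 (standard error 0.74, limma's adjusted p = 0.0106).

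Nrp2, on chromosome 1 from 62749859 to 62865269 on the plus strand, had an FPKM of 28.8, 53.6 and 40.4 in control libraries. It had 15.5, 14.6 and 15.7 in the GL261 libraries and 10.3, 6.65 and 18.3 in the B16 libraries. The groups did not overlap, with all tumor-associated libraries below the control libraries. The log2 difference of -1.55 (95% interval -2.65 to -0.45) did not pass the threshold after adjustment (limma's adjusted p = 0.116). Nrp1 made up 0% to 1.50% of the summed FPKM of both neuropilins in control libraries, 32.5% to 70.0% in GL261 libraries and 40.0% to 85.6% in B16 libraries.

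The stretches before the starts of Flt1 and Nrp1 are shown because these are the family members that rose together in tumor-associated MLECs. They are the 250 bases before the RefSeq start, from a RefSeq table of GRCm38.p6, and each was found once, letter for letter, in mm9, at chr5:148537588-148537837 on the minus strand for Flt1 and at chr8:130882723-130882972 on the plus strand for Nrp1. Neither stretch overlaps an annotated exon. Capitals mark GGAA or its reverse complement TTCC, the core letters bound by ETS factors, a family with several members active in endothelial cells.

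Flt1: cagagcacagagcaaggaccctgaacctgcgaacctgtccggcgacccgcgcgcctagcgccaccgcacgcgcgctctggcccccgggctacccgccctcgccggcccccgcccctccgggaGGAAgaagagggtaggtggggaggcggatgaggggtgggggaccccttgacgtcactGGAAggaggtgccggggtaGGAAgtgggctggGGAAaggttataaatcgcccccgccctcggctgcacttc

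Nrp1: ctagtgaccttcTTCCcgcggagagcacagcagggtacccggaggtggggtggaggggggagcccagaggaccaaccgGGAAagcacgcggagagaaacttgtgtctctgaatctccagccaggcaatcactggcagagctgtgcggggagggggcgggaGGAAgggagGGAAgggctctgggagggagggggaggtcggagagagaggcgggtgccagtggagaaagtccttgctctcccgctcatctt

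Both stretches hold 4 such cores. The same 250 bases hold 4 before Kdr, 2 before Flt4 and 1 before Nrp2, and the median over 32851 promoter stretches of this length was 3, with 93.4% holding at least 1. The Flt4 stretch (chr11:49422931-49423180) lies wholly inside the first exon of the mm9 annotation, whose start is further upstream. On either strand, GGGCGG, the GC box, occurred 3 times before Flt1, 1 time before Nrp1, 2 times before Kdr, 3 times before Flt4 and 5 times before Nrp2, and in 32.7% of all stretches at least once. TATAAA occurred only before Flt1 among these 5 genes (12.4% of all stretches), and ACGTG, the core of the hypoxia response element, before none of them (16.6% of all stretches). No occurrence of one motif overlapped an occurrence of another in these stretches, and a match in a sequence is not a measurement of binding.

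The ligands are mostly made by other cells, and in MLECs they were low or uneven. Vegfc lies on chromosome 8 from 55162886 to 55271808 and encodes the main ligand of VEGFR3. All 3 controls were listed at 0. Its FPKM was 40.2, 19.0 and 15.5 in the GL261 libraries and 0, 61.2 and 75.9 in the B16 libraries. Vegfc was thus above 0 in all tumor-associated libraries except B16 replicate 1. The log2(FPKM + 1) difference of 4.33 (95% interval 1.80 to 6.85, limma's adjusted p = 0.0584) did not pass the threshold, and without B16 replicate 1 it was 5.19 (adjusted p = 0.00208). That was the 1 of 19 alternative settings in which Vegfc passed. Limma's adjusted p reached 0.129 with another library left out and 0.687 over all alternatives. Against a group listed at 0 the Vegfc difference depends on the pseudocount and is not a fold change.

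Pgf, on chromosome 12 from 86507589 to 86518246, encodes a ligand of VEGFR1. Its FPKM was 0, 22.2 and 119 in control libraries, 0.515, 0.0925 and 0.453 in the GL261 libraries, and 118, 60.5 and 19.1 in the B16 libraries. All GL261 libraries were below 1 FPKM and all B16 libraries were above 19, while the control libraries spread over both ranges. The tumor-associated against control difference of -0.74 had a 95% interval from -4.50 to 3.01 (limma's adjusted p = 0.864).

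Vegfa, the central ligand of VEGFR1 and VEGFR2 (chromosome 17 from 46153942 to 46169326), had no value above 0 in the controls. It was at 3.82, 4.87 and 0 in GL261 libraries and at 5.36, 0 and 0 in B16 libraries, a difference of 1.25 on the log2(FPKM + 1) scale (limma's adjusted p = 0.400). Vegfb, a ligand of VEGFR1 on chromosome 19 from 7056963 to 7062141, was at 0, 31.0 and 22.8 in control libraries, at 9.28, 5.31 and 0.248 in GL261 libraries and at 0, 9.67 and 21.2 in B16 libraries. Its groups overlapped, with a difference of -0.82 (95% interval -3.55 to 1.91, limma's adjusted p = 0.780). Figf, on the X chromosome from 160811310 to 160840582, was listed at 0 in every library except B16 replicate 3, at 1.36 FPKM (difference 0.21, two-sided exact permutation test over 84 divisions of the libraries, p = 1.0). With a single library above 0, in the larger group, all 84 divisions give a difference at least as large. The test could therefore not decide whether Figf differed.

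Of the 9 family members tested, 2 were called higher (Flt1 and Nrp1) and 1 lower (Flt4) in tumor-associated MLECs. Among all 9955 genes tested, 2.90% were called higher and 1.02% lower. Counted without a test, 2 members had every tumor-associated library above every control library and 2 (Flt4 and Nrp2) had every one below, against 6.08% and 4.44% of all genes. The median difference of the tested members was -0.34, and that of all genes tested was 0.20. Higher calls made up 73.9% of all calls, and 62.1% after quantile normalization, which moved the median of all genes to 0.03. After it, Flt1 differed by 5.34, Nrp1 by 3.33 and Flt4 by -1.92, and all 3 kept their calls.

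The order of the levels changed with the tumors. In control MLECs, Flt4 was above all other members without overlap, and Pgf, Kdr, Nrp2 and Vegfb followed with overlapping neighbours. In GL261 MLECs, Flt1 was first without overlap with Flt4, whose range overlapped that of Kdr, followed by Vegfc, Nrp1 and Nrp2. In B16 MLECs the means ran from Flt1 over Flt4, Pgf, Vegfc and Kdr to Nrp1 and Nrp2, and every neighbouring pair overlapped.

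The second comparison took each tumor on its own against the same 3 control libraries. In GL261 MLECs, Flt1 rose by 6.24 (limma's adjusted p = 3.35e-04), Nrp1 rose by 3.88 (adjusted p = 0.0371) and Flt4 fell by 2.13 (adjusted p = 0.0133) on the log2 scale. That is 2 members called higher and 1 lower, where 2.58% and 0.904% of all genes were called. In B16 MLECs, Flt1 rose by 6.12 (adjusted p = 5.36e-04) and Nrp1 by 3.94 (adjusted p = 0.0457), where 1.61% of all genes were called higher and 0.502% lower. Flt4 differed by -1.47 in B16 MLECs without passing the threshold (95% interval -2.32 to -0.62, adjusted p = 0.0803).

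The other members passed in neither tumor. For Nrp2 the difference was -1.32 with GL261 (limma's adjusted p = 0.286) and -1.78 with B16 (adjusted p = 0.174). Vegfc differed by 4.58 in GL261 (adjusted p = 0.113) and by 4.07 in B16 MLECs (adjusted p = 0.192), and Kdr by -0.36 and -0.32. Without B16 replicate 1, whose spread enters both comparisons, Vegfc passed in GL261 (adjusted p = 0.00932) and in B16 MLECs (difference 6.11, adjusted p = 0.00684). In each tumor this was the 1 of 18 alternative settings in which Vegfc passed. Over the alternatives, limma's adjusted p reached 0.931 in GL261 and 0.717 in B16 MLECs. The Vegfc difference was as low as 1.18 in GL261 and 2.22 in B16 MLECs.

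For Pgf the difference was -3.39 with GL261 (limma's adjusted p = 0.252) and 1.91 with B16 (adjusted p = 0.585). This difference depended on the control libraries: without Control replicate 1, where Pgf was listed at 0, the GL261 difference was -5.30 (adjusted p = 0.0183) and the B16 difference was -0.0008 (adjusted p = 1.0). The Nrp1 calls in single tumors were near the threshold and were lost in 10 of 18 alternative settings for GL261 and in 11 of 18 for B16.

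**Figure D3:**
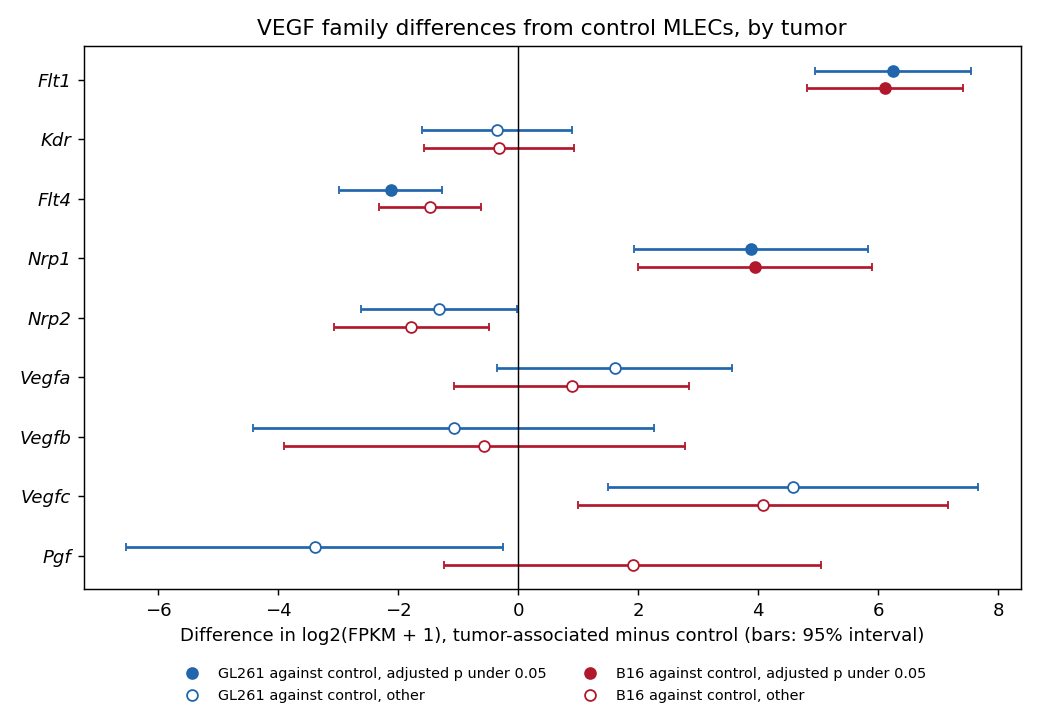
Difference of each tested family member from the control libraries, in log2(FPKM + 1), for GL261 and B16 with 3 libraries each; bars are 95% intervals from limma and filled points have an adjusted p under 0.05. Flt1 lies at 6.24 and 6.12, Nrp1 at 3.88 and 3.94 and Flt4 at -2.13 and -1.47. The points of Pgf fall on opposite sides of 0, but without Control replicate 1 the B16 point is at -0.0008.

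GL261 and B16 MLECs were then compared directly. No family member passed limma's threshold, as 1 of the 9955 genes tested did (0.0100%). Every GL261 library had less Pgf than every B16 library, with a log2 difference of -5.30 (95% interval -8.44 to -2.17, unadjusted p = 0.00324, adjusted p = 0.381 from limma). Flt4 also did not overlap, at a difference of -0.65 with a 95% interval from -1.51 to 0.20, and 6.66% of all genes were lower in GL261 without overlap. Pgf was the 1 member of the 9 with an unadjusted p under 0.05 in this comparison, where 548 of the 9955 genes tested had one. Flt1, Kdr and Nrp1 differed by 0.13 (95% interval -1.17 to 1.43), -0.04 (-1.28 to 1.21) and -0.06 (-2.01 to 1.89).

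Genes that act with the receptors were read from fixed lists. Over all genes tested in tumor-associated against control MLECs, 2.90% were called higher and 1.02% lower. Of 37 genes that carry signals from VEGF receptors, 32 were tested, and only Nos3, which encodes endothelial nitric oxide synthase, was called. Nos3 was at 0, 2.80 and 1.27 FPKM in control libraries and between 8.10 and 56.0 in tumor-associated libraries, a log2 difference of 3.62 (standard error 0.76, limma's adjusted p = 0.0186). The median difference of the list was 0.15, near the 0.20 of all genes. Of 23 partners of the receptors such as integrins, plexins and Cdh5, 21 were tested and none was called by limma. Their median was 0.74, and 6 had an unadjusted p under 0.05, as did 1889 of all 9955 genes tested.

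Of 10 genes that process VEGF-C and VEGF-D, 3 were tested and 7 were listed at 0 in all libraries, among them Ccbe1 and Adamts3, whose products activate VEGF-C outside the cell. Ctsd, the lysosomal protease cathepsin D, fell by 1.81 on the log2 scale (limma's adjusted p = 0.0176). Its FPKM ranged from 490 to 1017 in the controls and from 133 to 424 with a tumor.

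Of 20 genes known to be induced by VEGF in endothelial cells, 18 were tested, of which 4 rose and 1 fell, with a median of 1.02. Over all genes tested, 2.90% were called higher and 1.02% lower, with a median of 0.20. The 4 list members that rose were Kcne3, a potassium channel subunit (6.43), Plaur, the urokinase receptor (4.17), Apln, the tip cell peptide apelin (4.10), and Adamts1, a secreted protease (1.84). Egr1, an immediate early transcription factor, fell by 1.31. Apln was at 0.208, 0 and 0 FPKM in control libraries and between 7.12 and 45.5 in tumor-associated libraries, and Kcne3 was at 0 to 1.94 and at 17.8 to 1062. The adjusted p of limma was 0.00198 for Kcne3, 0.0320 for Plaur, 0.00673 for Apln, 0.0179 for Adamts1 and 0.0231 for Egr1, and Plaur lost its call in 11 of 19 alternative settings.

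Among 9 oxygen sensing genes that act upstream of Vegfa, 8 were tested and Hif1a rose by 2.36 (limma's adjusted p = 0.0434), a call lost in 14 of 19 alternative settings. The median of these genes was 0.58. Of 9 relatives from the platelet-derived growth factor family, 4 were tested and none was called by limma. Their median was -0.11, and 1 had an unadjusted p under 0.05, as did 1889 of all 9955 genes tested.

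Marker lists of lymphatic and blood endothelium were set beside Flt4 and Flt1. Over all genes tested, 2.90% were called higher and 1.02% lower, with a median difference of 0.20. Of 14 lymphatic endothelial markers, 13 were tested, of which 4 fell and none rose, with a median difference of -1.95. Those that fell were Thy1 (-3.72), the chemokine gene Ccl21c (-3.32), the secreted glycoprotein gene Mmrn1 (-2.56) and Reln (-2.35). Limma's adjusted p was 0.00189 for Thy1, 0.0320 for Ccl21c, 0.00543 for Mmrn1 and 0.0335 for Reln, and Ccl21c and Reln each lost the call in 9 of 19 alternative settings. Nts, a neuropeptide gene, lay on the other side of 0, at 0 to 0.565 FPKM in the controls and 0 to 122 with a tumor, without passing (limma's adjusted p = 0.101). The value of Ccl21c is uncertain because near-identical gene copies share its reads. Lyve1 and Pdpn overlapped between the groups, and Prox1, the transcription factor of lymphatic identity, ranged from 20.9 to 42.2 FPKM in the controls and from 1.87 to 16.5 with a tumor (limma's adjusted p = 0.0509). The summed FPKM of the list was 10847 to 17296 in control and 1000 to 7055 in tumor-associated libraries. Most of the control sum was the uncertain value of Ccl21c, at 7384 to 13803 FPKM in control and 142 to 4187 in tumor-associated libraries. The sum therefore says little about the other markers.

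Of 20 blood endothelial markers, 18 were tested, of which 11 rose and none fell, with a median of 3.51. Over all genes tested, 2.90% were called higher and 1.02% lower, with a median of 0.20. The summed FPKM of the blood marker list was 2753 to 4169 in control and 8448 to 17563 in tumor-associated libraries. Most of the control sum was Cldn5 and Plvap, at 1497 to 1702 and 686 to 1390 FPKM in control libraries. In tumor-associated libraries Cldn5 was at 698 to 1679 and Plvap at 1462 to 4037 FPKM. The sum therefore says little about the weaker markers. Ly6c1, a surface protein of blood endothelium, had no value above 0 in the controls and between 393 and 4375 FPKM with a tumor (limma's adjusted p = 3.61e-06). The log2 differences of Cd34, Esam and Nostrin were 6.38, 6.03 and 5.62, and that of Ly6a was 8.12. Cldn5, a tight junction gene, was the 1 tested blood marker with a negative difference (-0.63, limma's adjusted p = 0.211), and in GL261 against control MLECs it was called lower. Limma's adjusted p was 1.67e-04 for Cd34, 1.70e-04 for Esam, 0.00198 for Nostrin and 0.00658 for Ly6a. With the number of detected genes as a covariate, Cd34, Esam, Nostrin and Ly6a lost their calls (limma's adjusted p between 0.0577 and 0.451). Ly6c1 kept its call in all 19 alternative settings. Of 10 markers shared by all endothelium, Eng (1.37, adjusted p = 0.0197) and Ecscr (0.90, adjusted p = 0.0400) rose, and Pecam1 and Cdh5 did not pass. Ecscr lost its call in 13 of 19 alternative settings and Eng in 6.

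B16 replicate 1, the tumor-associated library with the most Flt4 and the least Flt1, had the highest lymphatic marker mean of the tumor-associated libraries (6.07 on the log2(FPKM + 1) scale, against 3.98 to 5.50 in the others) and the lowest blood marker mean (5.96, against 6.46 to 6.96). Control libraries had lymphatic marker means of 6.28 to 6.77 and blood marker means of 2.82 to 4.20. The part of a changed mix of endothelial cells in the receptor differences was not tested. Without B16 replicate 1, Flt4 differed by -1.98 (limma's adjusted p = 0.00548) and Flt1 by 6.40 (adjusted p = 2.70e-05).

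**Figure D4:**
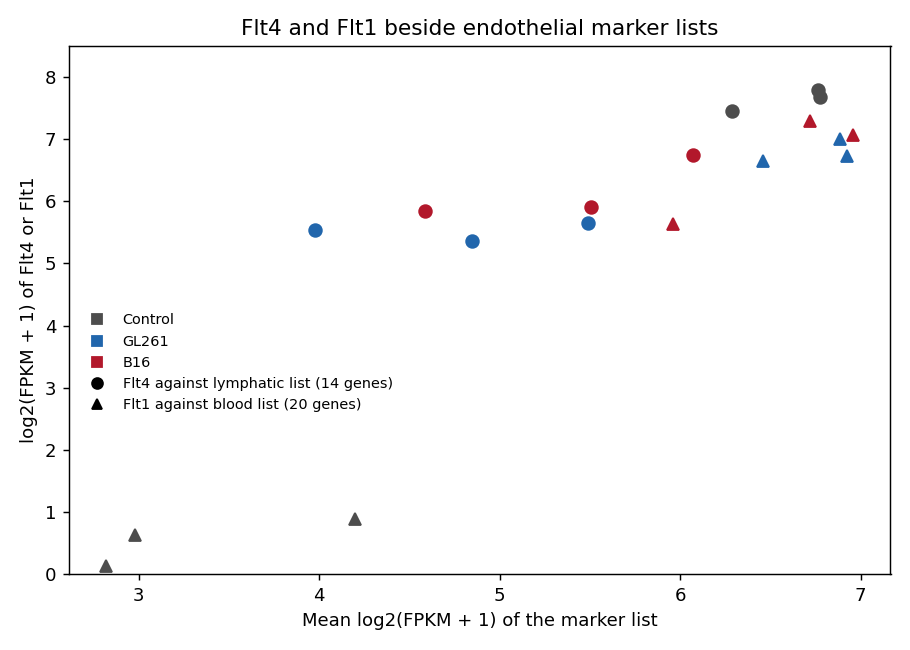
Level of Flt4 against the mean of 14 lymphatic endothelial markers (circles) and of Flt1 against the mean of 20 blood endothelial markers (triangles), all as log2(FPKM + 1); each library gives 1 circle and 1 triangle, colored by group. Control libraries lie at the right end for Flt4 and at the lower left for Flt1, and the B16 library with the highest circle is also the one with the lowest tumor-associated triangle.

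Markers of cells outside the endothelium were read in the same way. Of 12 leukocyte markers, 5 were tested and none was called by limma. An unadjusted p under 0.05 was found for 1 of them, and for 1889 of all 9955 genes tested. Ptprc, Adgre1 and Cd3e were listed at 0 in all libraries. Other members of the list had values above 0. Fcer1g was at 201 to 390 FPKM in control and 17.8 to 272 in tumor-associated libraries. Lyz2 was at 0 to 145 and 0 to 324, Tyrobp at 0 to 71.2 and 0 to 43.5, and Cd68 at 0 to 43.2 and 0.428 to 23.7. The summed FPKM of the leukocyte list was 267 to 522 in control and 32.8 to 449 in tumor-associated libraries. Of 11 mural and fibroblast markers, 2 were tested and Dcn fell by 4.60 (limma's adjusted p = 0.00110), from 15.7 to 44.9 FPKM in control libraries to at most 0.146 in tumor-associated libraries. The sum of this list was 185 to 592 in control and 12.4 to 121 in tumor-associated libraries. The highest control sum was mostly Acta2, at 505 FPKM in Control replicate 1 and 0 in the other controls. In the other libraries most of the sum was Kcnj8, at 59.9 to 195 in control and 6.56 to 116 in tumor-associated libraries. Kcnj8 overlapped between the groups and did not pass (limma's adjusted p = 0.405). Of 12 melanocytic and glial markers, 1 was tested, S100b, which limma did not call, also without adjustment, in tumor-associated against control MLECs. S100b was called higher in B16 against control MLECs, where it was at 37.0, 36.5 and 25.3 FPKM. The sum of that list reached from 0 to 0.997 in the controls, from 0 to 7.07 with GL261 and from 25.4 to 37.3 with B16. In the B16 libraries nearly all of this sum was S100b. The melanocytic genes Mlana, Tyr, Tyrp1 and Mitf were listed at 0 in all libraries. The part of cells outside the endothelium in the VEGF family values was not tested.

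Genes whose pattern over the 9 libraries was most like that of Flt4 or Flt1 were named by Pearson's correlation of log2(FPKM + 1), as a description only, since the control and tumor-associated libraries form separate clusters. The nearest to Flt4 were Cmtm7 (0.98), Ankrd6 (0.97), Pgc (0.96), Hoxd10 (0.96) and Fgf12 (0.96). Cmtm7 had a mean FPKM of 95.5 in control and 26.2 in tumor-associated MLECs. The nearest to Flt1 were Igfbp3 and Tgfbi (0.99 each), Fkbp5, Golm1 and Tagln2 (0.99 each). Igfbp3, an insulin-like growth factor binding protein, went from a mean FPKM of 0.578 to 2627, and Tgfbi, Fkbp5 and Golm1 were listed at 0 in all control libraries.

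Each value rests on 3 libraries per group and on 10 cells per library. With the number of detected genes as a covariate, Flt1 kept its call (difference 5.49, limma's adjusted p = 0.0154), while Flt4 (-1.22, adjusted p = 0.476) and Nrp1 (3.53, adjusted p = 0.317) did not. The Flt4 call was also lost without Control replicate 3 (adjusted p = 0.0527) and with limma's trend left out (adjusted p = 0.0571).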

How the data were processed

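RNA-seq of 9 libraries of sorted meningeal cells was used. The authors amplified cDNA with a poly(T) protocol, sequenced read pairs, trimmed the reads, aligned to mm9 with TopHat2 2.0.12 and computed expression with Cufflinks 2.2.1. They deposited 1 FPKM per gene symbol and library, not normalized further; the gene annotation was not given in the sources used here. FPKM per gene do not separate isoforms. No counts were recovered, so that no count model was fitted and depth is unknown.

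The labels gave each library its group and replicate number. From the deposited FPKM, log2(FPKM + 1) was tested with limma 3.58.1 in R 4.3.3 (lmFit, eBayes with a trend) over the 9955 genes that reached an FPKM of 1 in 3 or more libraries. P-values were adjusted over these genes (Benjamini-Hochberg, threshold 0.05). Both tumors were joined for tumor-associated against control, and a fit with 3 groups served single tumors. Figf, below the filter, was compared by a two-sided exact permutation test. The script was tested on simulated data. The rest was done in Python 3.11.15 with scipy 1.17.1, pandas 2.3.3, numpy 2.4.6 and matplotlib 3.10.9. The labels name pools of different mice as replicates.

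The family members and all gene lists were chosen with earlier results of these data known. Named genes are the 10 members, up to 5 called genes per list with the largest difference, and the 5 genes most correlated with Flt4 and with Flt1; genes named beyond this rule (Prox1, Lyve1, Pdpn, Pecam1, Cdh5, Ptprc, S100b, Ccbe1, Adamts3 and other genes listed at 0) check a label or account for a list. Nts, Cldn5, Plvap, Acta2, Kcnj8, Fcer1g, Lyz2, Tyrobp and Cd68 were chosen after their values were seen. Lists overlap, as Nos3, Efnb2, Itga9, Cdh5, Csf1r, Pdgfra and Pdgfrb each stand in 2. Gene positions came from GENCODE M1 (mm9) and promoter sequences from RefSeq (GRCm38.p6), located in mm9 by exact match. Alternatives were another pseudocount, 3 scalings, 2 filters, no trend, a replicate block, the number of detected genes as a covariate, a 3-group fit and leaving out each library.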

Additional observations from a re-analysis of the deposited data

Results flagged for a closer look

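A sample far from the others of its set was found in 6 of the 19 sets of values of the 6 tumor-associated libraries examined, where chance gives about 1 in 20. Sets that share values or hold many zeros do not follow that rate, so no excess over chance can be read from the count. In 5 of the 6 the sample was B16 replicate 1, and these 5 share the same receptor values. It had 106 FPKM of Flt4, against 40.1 to 59.4 in the other tumor-associated libraries. Flt4 made up 61.7% of the summed receptor FPKM there and Flt1 28.4%. Its Flt4 minus Flt1 was 1.10 and its Flt4 minus Kdr was 2.56 on the log2(FPKM + 1) scale. The part of cell mix, depth or amplification in this library was not tested. The sixth was Figf at 1.36 FPKM in B16 replicate 3, with 0 in the other libraries, so that its single value above 0 was bound to stand out.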

How the results depend on the processing

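Limits are 3 libraries of 10 cells per group, no read counts, and a number of detected genes that cannot be told apart from the tumor groups. Of 147 values of the called member differences under the alternatives, 117 kept their direction and their call, 30 lost the call and 0 reversed. Of 507 values of the other member differences, 477 kept direction without a call, 25 changed sign without a call and 5 became called. Flt1 against control in joined tumors kept its call in all 19 alternatives, Nrp1 in 18 and Flt4 in 16. Among the members, further calls lost were Flt1 in GL261 MLECs with the covariate (5.02, limma's adjusted p = 0.290), and Flt4 in GL261 MLECs in 4 of 18 alternatives, of which 2 leave out GL261 replicate 1 (adjusted p = 0.0636) or 2 (0.0585). Of the genes of the lists, Ctsd lost its call in 4 of 19 alternatives, Egr1 in 6 and Nos3 in 3. With the number of detected genes as a covariate, all called list genes named by difference lost their calls except Ly6c1. Among these, limma's adjusted p was then 0.361 for Mmrn1, 0.222 for Thy1, 0.207 for Apln, 0.0830 for Dcn and 0.0681 for Kcne3. Flt4 in B16 MLECs became called with a mean FPKM of at least 10 (adjusted p = 0.0483).

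The number of genes called in tumor-associated against control MLECs, 391, was 254 with genes above 0 in 1 library and 13 with the number of detected genes as a covariate. With a library left out it was between 238 (GL261 replicate 2) and 449 (Control replicate 2), and it was 247 without B16 replicate 3 and 257 without GL261 replicate 1. In GL261 against control, 347 became 218 with that filter, 230 with the replicate block and 6 with the covariate, and between 115 (without GL261 replicate 1) and 368 with a library left out, with 126 without GL261 replicate 2 and 181 without replicate 3. In B16 against control, 210 became 135 with the filter and 17 with the covariate, and between 72 (without B16 replicate 3) and 279 with a library left out, with 102 without B16 replicate 2, and 138 and 131 without GL261 replicates 1 and 2. In GL261 against B16, 1 became 2 with quantile normalization and 6 without a trend, and 1 to 4 with a library left out. In GL261 against control, higher calls were 74.1% of calls, 60.9% after rescaling to an equal sum and 63.6% after quantile normalization. The cause of these changes was not tested, except that the filter changes the number of genes tested and leaving out a library the number of samples. The difference in Flt4 minus Flt1 was -9.54 with a pseudocount of 0.1 and -7.98 with 1, and from -8.38 to -7.86 with a library left out. That in Flt4 minus Kdr was from -1.82 to -1.28 with a library left out.

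Replicate numbers are shared between groups. Same-numbered libraries did not deviate together (correlations of deviations from group means between -0.03 and 0.04). With 3 libraries of 10 cells per group, these correlations cannot decide whether the numbers mark a shared batch. With the number as a block, 303 genes were called in tumor-associated, 230 in GL261 and 146 in B16 against control, Flt4 kept its call (adjusted p = 0.0388) and Nrp1 in B16 MLECs lost it (0.0509). Vegfa and Dcn could not be run with the filter on a mean FPKM of 10.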
